A study of Homo sapiens with 6 samples.

Results

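Long runs of DHX9 binding sites on 1 strand were examined in HEK293, a widely used human cell line of embryonic kidney origin. A run was defined as 10 or more peaks of the DHX9-Rb list on the same chromosome and strand in which no gap between neighbours exceeded 5000 nt, with the mitochondrial and X chromosomes left out. This gave 474 runs holding 8986 of the 20871 DHX9-Rb peaks considered, of 21618 in the whole list. The assay was FLASH, in which ultraviolet light ties a protein to the RNA it touches, the protein is captured with an antibody and the trimmed RNA is sequenced. The groups were DHX9-Rb (antibody ab26271 of Abcam) and DHX9-mAb (antibody sc-137183 of Santa Cruz), both against DHX9, and a control immunoglobulin, IgG-Rb. Each had 2 biological replicates of the same cell line, and no genotype or drug treatment is labelled for any of them. The deposited lists give the position and strand of each peak, 1 list per DHX9 antibody for both of its replicates together, in assembly hg19. They hold no height, fold or p-value, the depth behind a peak is unknown, and IgG-Rb values were not used here, so no replicate error or background level stands beside a peak.

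DHX9, also called RNA helicase A, unwinds double-stranded RNA and carries double-stranded RNA binding domains. A common source of such structure in human transcripts is the Alu repeat, a short mobile element that is abundant in introns. Pairs of Alus in opposite orientation within 1 transcript can fold back on each other, and DHX9 is known to bind such inverted pairs in human cells. No genome sequence or repeat annotation of hg19 was used here, so the sequence under the peaks and their place in exons, introns or repeats are not described, and regions are given by position. Locus names in the text are background knowledge of where genes lie in hg19. They were not read from the lists, and the chromosome and strand of all 10 named for the largest runs matched the GENCODE 29 annotation.

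The runs were selected by the DHX9-Rb positions themselves, so their number, length, gaps, widths and covered share are descriptions without a test. The DHX9-mAb list took no part in the selection. Peaks of a run lie close together and may share a transcript, and each list stands for 1 measurement, so shares are given with 95% Wilson intervals, which cover counting error only, and with no p-value. Medians carry 95% intervals from order statistics. The direction 5' to 3' follows the strand column of the lists, and no source used here says whether that is the strand of the RNA, so all 5' and 3' results would trade places under the opposite convention.

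Runs took up a large part of the DHX9-Rb list. They held 43.1% of the peaks (42.4 to 43.7) and 47.3% of the peak-covered sequence, 2216607 of 4686304 nt. Another 9341 peaks lay in 2514 groups of 2 to 9 peaks formed by the same gap limit, and 2544 peaks stood alone. Runs were about equally common on the plus strand (245) and the minus strand (229). Chromosome 19 had 83 runs with 1625 of its 2905 peaks (55.9%), and chromosome 22 had 37 runs with 675 of its 1159 peaks (58.2%). Chromosome 1 had 71 runs with 50.9% of its peaks. Chromosome 3 had 10 runs with 17.4% of its peaks, chromosome 18 had 1 run with 9.73% and chromosome 13 had none among its 107 peaks.

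Runs ranged widely in size. The median run held 15 peaks (interquartile range 12 to 21) and was 11504 nt long (7764.5 to 16533). The shortest was 2555 nt and the longest 62514 nt, and the largest number of peaks was 105. In all, 227 runs had 10 to 14 peaks and 141 had 20 or more. Those 141 held 4567 peaks, so the larger runs carried about as many peaks as the other 333. Larger runs were longer, with a Spearman's rho of 0.73 between peak number and length over the 474 runs. The density was 14.8 peaks per 10 kb in the median run and ranged from 5.58 to 39.1.

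**Figure D1:**
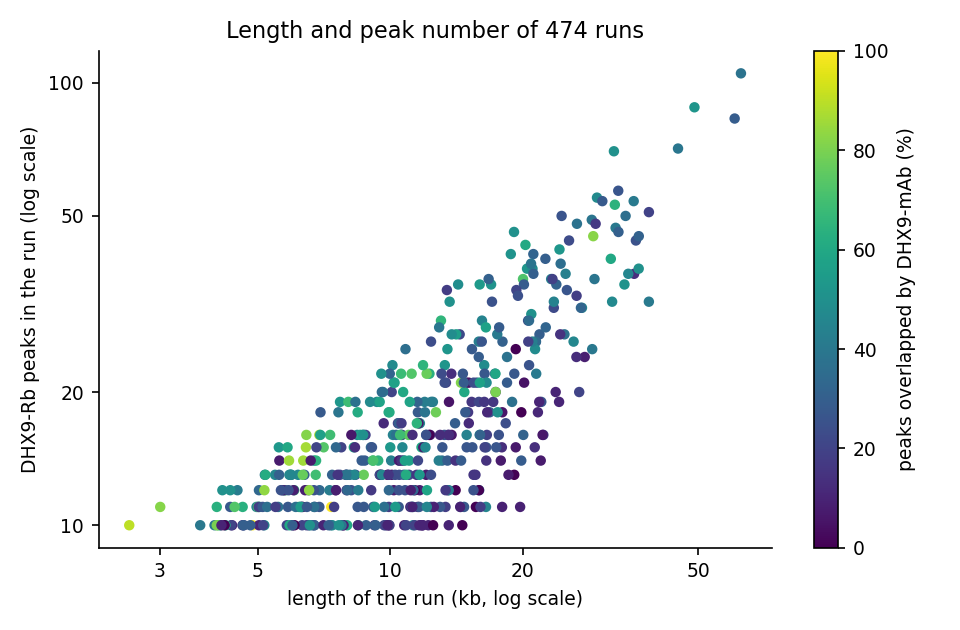
Each point is 1 of the 474 runs, with its length in kb (x axis, log scale), its number of DHX9-Rb peaks (y axis, log scale) and, as colour, the percent of its peaks overlapped by DHX9-mAb. Peak number goes up with length (rho 0.73), and short runs with many peaks for their length tend to have the lighter colours of high DHX9-mAb overlap.

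Groups just outside the size limit looked much like runs just inside it. The 62 runs of 10 peaks had a median length of 6887 nt, a median gap of 274.5 nt and a median covered share of 34.8%. The 80 groups of 9 peaks had 6072.5 nt, 283 nt and 32.0%. DHX9-mAb overlapped 28.1% of the peaks in runs of 10 (24.7 to 31.7) and 28.7% in groups of 9 (25.6 to 32.2). Both were near the 28.3% of all 20871 DHX9-Rb peaks considered.

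Gaps between neighbouring peaks in runs had a median close to the median peak width of 222.5 nt. The median gap was 213 nt (interquartile range 76 to 530) over 8512 neighbouring pairs in runs, against 379 nt (145 to 890) over 6827 pairs in the groups of 2 to 9. Gaps of 0 to 99 nt made up 28.2% of pairs in runs and 18.5% in the smaller groups. In runs, 12.3% of gaps were 1000 nt or longer. Another 110 neighbouring pairs in runs (1.29%) overlapped on their strand, by a median of 46 nt. The largest gap of a run had a median of 2426.5 nt, and 206 of the 474 runs (43.5%) had no gap over 2000 nt. There were 42 gaps (0.493%) between 4500 and 5000 nt, next to the limit of the rule.

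Gaps in runs had no excess at 250 to 350 nt, taken here as the scale of a full Alu element. Gaps of 250 to 350 nt made up 9.95% of pairs in runs (9.33 to 10.6) and 9.93% in the smaller groups (9.24 to 10.7). On either side of this range the shares in runs declined steadily, with 15.1% of gaps from 150 to 249 nt and 6.9% from 351 to 451 nt. In bins of 50 nt the most frequent gap was the shortest, 0 to 49 nt, with 16.9% of pairs in runs. Each later bin held fewer pairs than the one before it, down to 65 pairs at 850 to 899 nt.

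Distances between midpoints, which include the widths of the peaks, did have a broad maximum. The median midpoint distance was 490.5 nt in runs and 608.5 nt in the smaller groups. Midpoints 250 to 350 nt apart made up 16.8% of pairs in runs (16.0 to 17.6) and 11.8% in the smaller groups (11.1 to 12.6). The next range of the same size, 351 to 451 nt, held 17.2% in runs and 12.8% in the smaller groups. The maximum in runs was thus flat over both ranges. Peaks that do not overlap cannot have midpoints closer than the mean of their widths. A lower limit that differs from pair to pair is thus built into this distance, and the median width in runs was 222.5 nt.

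**Figure D2:**
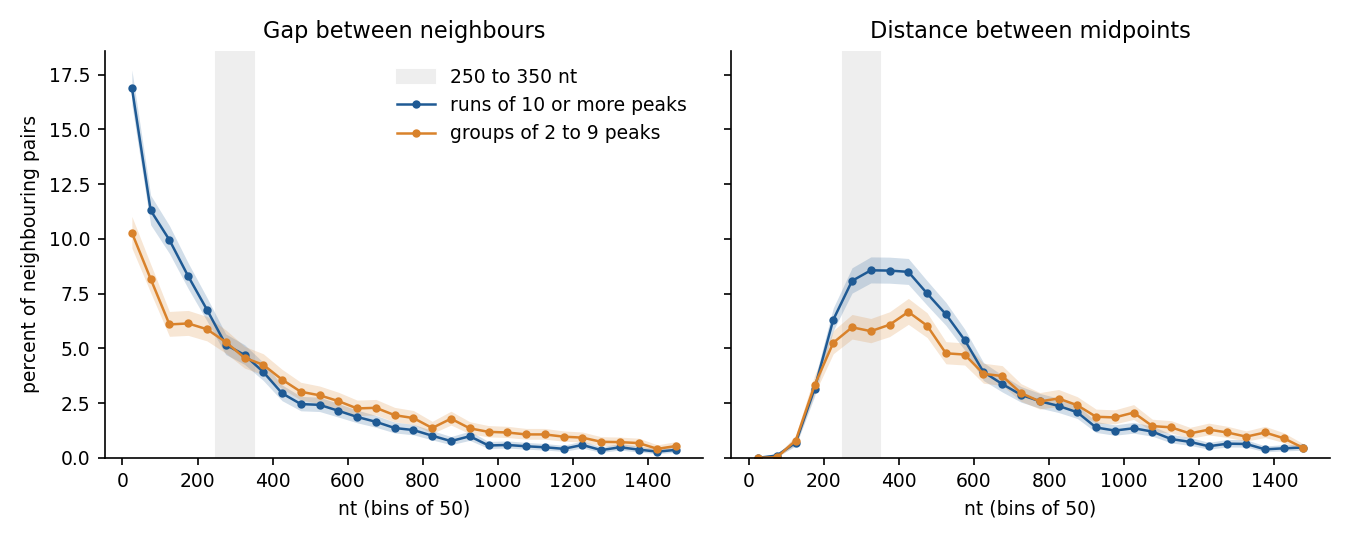
The lines give the percent of neighbouring DHX9-Rb pairs in bins of 50 nt (y axis) by gap (left) and by distance between midpoints (right), for runs of 10 or more peaks and for groups of 2 to 9, with shaded 95% Wilson intervals. Gaps decline from 0 nt with no bump in the grey band of 250 to 350 nt, while midpoint distances in runs form a flat maximum across and beyond it.

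Peaks covered a minority of the sequence of most runs, and the share varied widely. Over all runs, 34.7% of the 6386742 nt spanned was covered by DHX9-Rb peaks. The median run was covered to 35.8% (34.2 to 37.9), with an interquartile range of 25.9 to 47.3% and extremes of 11.5 and 81.7%. In 95 runs at least 50% of the sequence was covered. The densest run lay on chromosome 22, minus strand, 24311371 to 24314374, where 11 peaks covered 81.7% of 3004 nt with a median gap of 38.5 nt. On chromosome 12, plus strand, 53862916 to 53865470, 10 peaks covered 81.5%. On chromosome 21, minus strand, 47738621 to 47742952, 12 peaks covered 80.4%. At the other end, a run of 13 peaks on chromosome 19, minus strand, 50063867 to 50082413, was covered to 11.5% of 18547 nt, with a median gap of 556 nt. A pair of runs on chromosome 2 followed, on the plus strand from 203147527 to 203164013 with 12.3% and on the minus strand from 29075580 to 29091466 with 12.5%.

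Peaks in runs were wider than other peaks of the same list. The median width was 222.5 nt in runs (interquartile range 166 to 303), 194 nt in groups of 2 to 9 (149 to 258) and 166 nt for single peaks (128 to 213.25). Peaks of 400 nt or more made up 10.7% in runs, 5.87% in the smaller groups and 3.11% of single peaks. Width varied mostly within runs. The median width per run had an interquartile range of 196.6 to 247 nt, and Spearman's rho between the widths of neighbouring peaks in runs was 0.10 over 8512 pairs.

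Width had no common trend from the 5' to the 3' end of a run. When the peaks of each run were divided at the middle of its peak number, the median width was larger on the 3' side in 227 runs, larger on the 5' side in 244 and equal in 3. The 3' share was 48.2% of runs with a difference (43.7 to 52.7), an interval that includes 50%. The median difference, 3' minus 5', was -2 nt. Spearman's rho between place and width within a run had a median of 0.00 and an interquartile range of -0.18 to 0.18. It exceeded 0.5 in 18 runs and was below -0.5 in 19. Among the 141 runs with 20 or more peaks, 69 had the wider 3' side and 71 the wider 5' side.

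The peaks at the ends of runs were narrower than those inside. The first peak of a run, at its 5' end, had a median width of 191 nt (184 to 204) and the last 209.5 nt (198 to 216). Peaks beyond the 3 at each end had a median of 228 nt (225 to 231). The first peak was narrower than the median of its own run in 307 runs and wider in 155, or 66.5% (62.0 to 70.6). The last peak was narrower in 254 runs and wider in 198, or 56.2% (51.6 to 60.7). Peak 3 from the 5' end was already near the inner ones, with a median of 235 nt (217 to 249).

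Gaps were also wider at the ends, and somewhat wider on the 3' side. The first gap exceeded the median gap of its run in 279 of 448 runs with a difference (62.3%) and the last gap in 295 of 461 (64.0%). By deciles of a run's gaps, ordered from 5' to 3', the median gap was 290 nt in decile 1, reached its lowest value of 171 nt in decile 4 and was 342 nt in decile 10. The median gap was larger on the 3' side in 267 runs and on the 5' side in 207, or 56.3% (51.8 to 60.7). In runs of 20 or more peaks the numbers were 88 and 53, or 62.4% (54.2 to 70.0). By position rather than peak order, DHX9-Rb coverage was highest in decile 1 of the run length (40.4%), which always starts with a peak. It was 37.6% in decile 4, between 30.9 and 33.7% in deciles 5 to 9 and 37.9% in decile 10, which always ends with one.

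Outside the runs the sides differed the other way round, with the 5' side the emptier. From the 3' end of a run to the next DHX9-Rb peak on its strand, the median distance was 24687 nt (21143 to 30675, n = 471 runs). From the 5' end back to the preceding peak it was 65913 nt (48236 to 81827, n = 470). A further peak lay within 10 kb beyond the 3' end in 116 runs (24.6%) and before the 5' end in 79 (16.8%). The 3' distance was the larger in 195 runs and the 5' distance in 272, so the 5' side was the more isolated in 58.2% (53.7 to 62.6).

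DHX9-mAb overlapped at least 1 peak in 458 of the 474 runs, but a minority of the peaks in most of them. Of the 8986 DHX9-Rb peaks in runs, 3194 shared at least 1 nt with a DHX9-mAb peak of their strand, or 35.5% (34.6 to 36.5), against 28.3% of all 20871 DHX9-Rb peaks considered. The share was 24.9% in groups of 2 to 9 (24.1 to 25.8) and 14.98% for single peaks (13.6 to 16.4). When DHX9-mAb had to cover at least 50% of the DHX9-Rb peak, the shares were 26.0% in runs, 19.7% in groups of 2 to 9 and 13.6% for single peaks, against 21.7% of all. In the median run 30% of the peaks were overlapped (27.8 to 31.8), with an interquartile range of 18.8 to 47.6%. In 113 runs at least 50% of the peaks were overlapped. Over the 474 runs the overlapped share had a Spearman's rho of 0.58 with the covered share and of 0.19 with the number of peaks. A wide peak in a densely marked stretch has more room to overlap another, and the part this plays was not tested.

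Conversely, the runs held about as many DHX9-mAb peaks as the rest of the genome considered. Of 6520 DHX9-mAb peaks, 3250 touched a run on its strand, or 49.8% (48.6 to 51.1). Of these, 3091 (95.1%) overlapped a DHX9-Rb peak and 159 lay between DHX9-Rb peaks. No matching share was computed for DHX9-mAb peaks outside runs, so the 95.1% cannot be read as particular to runs. A DHX9-mAb peak spanned more than 1 DHX9-Rb peak in 517 cases, and 407 DHX9-Rb peaks held 2 or more DHX9-mAb peaks. Within runs DHX9-mAb covered 26.9% of the sequence under DHX9-Rb peaks and 3.52% of the sequence between them. The same gap and size limits applied to DHX9-mAb alone gave 103 runs with 1521 peaks, and 102 of these overlapped a DHX9-Rb run.

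DHX9-mAb overlap was lower towards both ends of a run. It was 17.5% at peak 1 from the 5' end (14.4 to 21.2), 29.1% at peak 2 and 36.5% at peak 3. Among the inner peaks it was 40.2% (39.0 to 41.5). Counted back from the 3' end it was 32.5% at peak 3, 24.5% at peak 2 and 12.4% at the last peak (9.77 to 15.7). Each run gave 1 first and 1 last peak, whereas larger runs, which had more overlap, gave more of the inner peaks. The contrast between end and inner peaks thus includes some difference in run size. In 349 of 474 runs neither the first nor the last peak was overlapped, and in 17 both were. By deciles of the peaks in a run, the share was highest in decile 4 with 42.8% (39.6 to 46.1) and lowest in decile 10 with 19.4% (16.9 to 22.1).

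**Figure D3:**
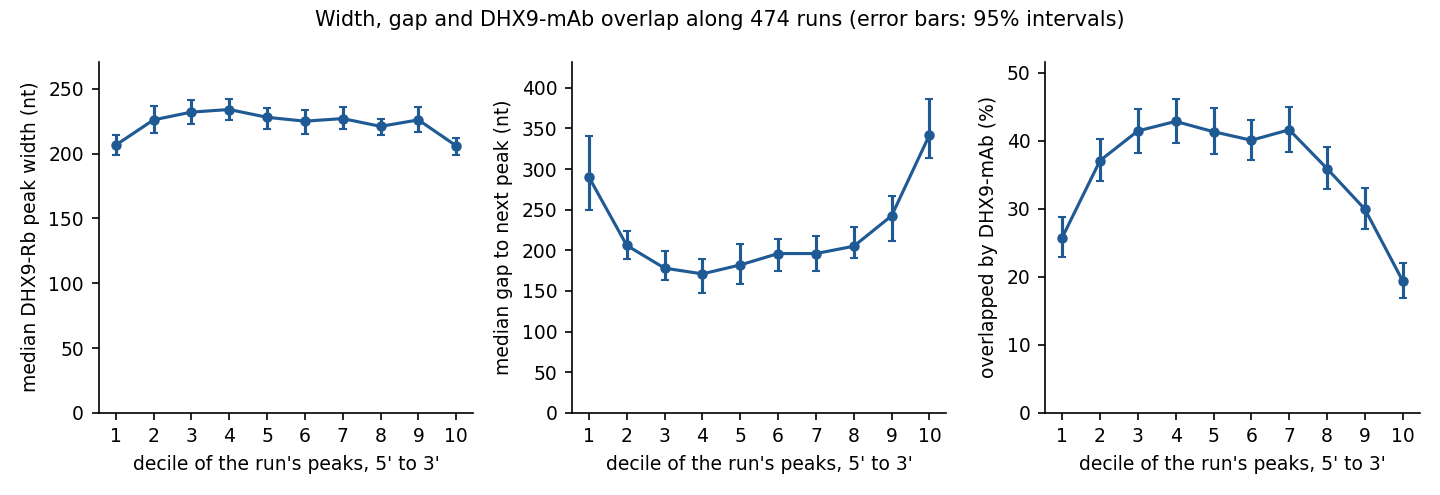
The peaks of 474 runs were ordered from 5' to 3' and divided into deciles (x axis), and the panels give the median width in nt, the median gap to the next peak in nt and the percent overlapped by DHX9-mAb, with 95% intervals as error bars. Width changes little between the ends, gaps are smallest and overlap is highest in decile 4 (171 nt and 42.8%), and both ends have wide gaps and low overlap.

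The 5' side carried slightly more DHX9-mAb overlap than the 3' side in the pooled peaks, but less clearly when counted by run. Pooled over runs, 33.3% of the peaks on the 3' side (32.0 to 34.7) and 37.7% on the 5' side (36.3 to 39.1) were overlapped. Counted by run, the 3' side had the larger share in 176 runs and the 5' side in 214, with 84 equal. The 3' share of 45.1% had an interval of 40.3 to 50.1, which includes 50%, and the median difference per run was 0. In runs of 20 or more peaks the 3' side had the larger share in 50 runs and the 5' side in 76, or 39.7% (31.6 to 48.4). Their median difference, 3' minus 5', was -7.14 percentage points.

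The low overlap at the ends was present in peaks of every width class. Among peaks of 301 nt or more, 47.1% of the first 3 peaks (41.5 to 52.8) and 39.1% of the last 3 (33.7 to 44.8) were overlapped, against 63.2% of the inner peaks (60.9 to 65.4). Among peaks of 201 to 300 nt the shares were 27.8% and 23.9% at the ends, against 38.3% inside. Among peaks of up to 150 nt they were 17.4% and 14.2%, against 24.5%. For peaks of 151 to 200 nt they were 19.6% and 16.0%, against 26.1%. In these narrowest classes the intervals of the first 3 and the inner peaks overlapped slightly. Here too, larger runs gave more of the inner peaks. Overlap differed little with width in single peaks and more in larger groups. Single peaks of 301 nt or more were overlapped in 17.2% of cases (12.6 to 22.9) and those of up to 150 nt in 16.7% (14.5 to 19.1). In groups of 2 to 9 the same width classes had 39.6% (37.1 to 42.1) and 21.5% (19.9 to 23.2). In runs as a whole they had 58.1% (56.1 to 60.1) and 21.4% (19.5 to 23.5). Peaks of up to 150 nt were thus overlapped about as often in runs as in the smaller groups. At 151 to 200 nt the shares were 23.3% in runs (21.5 to 25.2) and 19.6% in the smaller groups (18.1 to 21.2). At 201 to 300 nt they were 34.2% (32.6 to 35.9) and 25.0% (23.5 to 26.6), so the difference was larger in the wider classes.

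**Figure D4:**
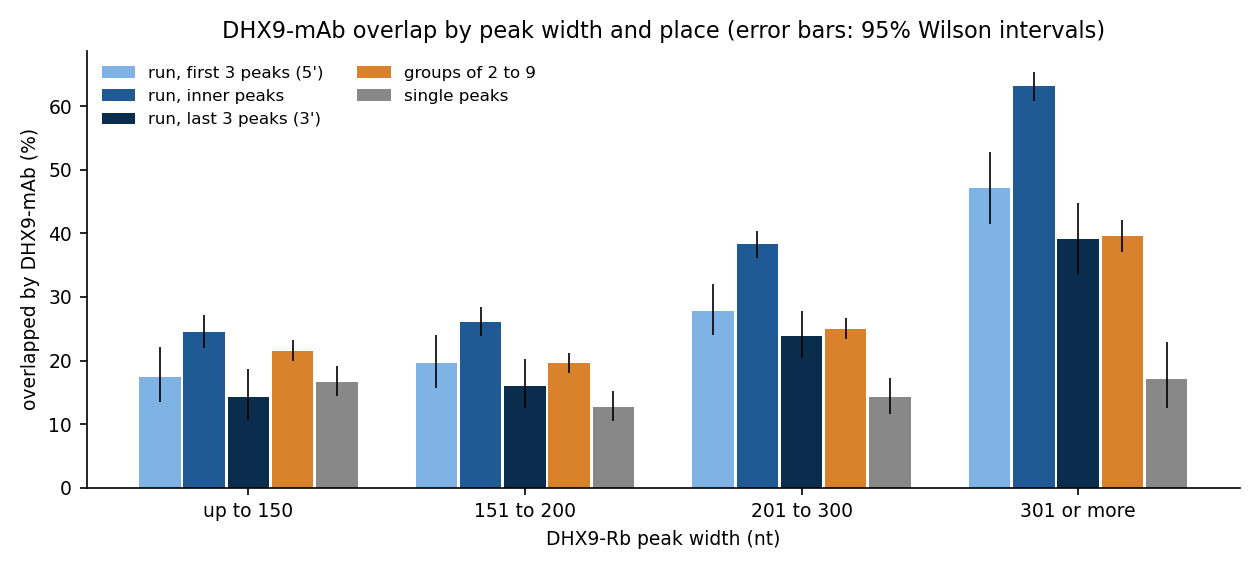
Bars give the percent of DHX9-Rb peaks overlapped by DHX9-mAb (y axis) by width class in nt (x axis), for the first 3, inner and last 3 peaks of runs, for groups of 2 to 9 and for single peaks, with 95% Wilson intervals. Inner peaks of runs are highest in each width class, reaching 63.2% at 301 nt or more, while single peaks stay between 12.6 and 17.2% at all widths.

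Taken over all runs together, overlapped peaks had shorter gaps beside them. Pooled over runs, a peak whose 5' neighbour was overlapped was itself overlapped in 1776 of 3135 cases, 56.7% (54.9 to 58.4). After a neighbour without overlap it was overlapped in 1335 of 5377 cases, 24.8% (23.7 to 26.0). In 531 pairs the same DHX9-mAb peak overlapped both neighbours, which needs a short gap (median 28 nt). With these pairs left out, the share after an overlapped neighbour was 47.8% (45.9 to 49.7). This pooled value also reflects that runs differ in their overlapped share. Within single runs, with those pairs left out, the share was higher after an overlapped neighbour in 217 runs and lower in 220, with 17 equal. Leaving out those pairs lowers only the share after an overlapped neighbour. The count by run therefore cannot decide whether overlapped peaks adjoin each other beyond shared DHX9-mAb peaks. The gap between neighbours had a median of 110.5 nt where both were overlapped (169 nt without the pairs sharing a DHX9-mAb peak), 215 nt where 1 was and 310 nt where neither was. Among all peaks but the first and last of each run, 57.0% were overlapped where the mean of the gaps on both sides was under 100 nt (54.5 to 59.5). Where this mean was 800 nt or more, 16.2% were overlapped (14.3 to 18.3). The median widths in these classes were 245 and 202 nt. These gap values were also pooled over runs, which differ both in gap and in overlapped share. Whether overlapped peaks lie in the tighter parts of a single run was not tested. The longest unbroken row of overlapped peaks was 15, the median of the longest row per run was 3, and 142 runs had a row of 5 or more, counting rows that share a DHX9-mAb peak.

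The overlapped share was higher in larger runs up to a point. It was 31.7% in runs of 10 to 14 peaks (29.9 to 33.5), 33.7% in those of 15 to 19, 37.6% in those of 20 to 29, 39.2% in those of 30 to 49 and 38.8% in the 13 runs of 50 or more (35.5 to 42.1). The intervals of the last 3 classes overlap. Over the same classes the median gap was 247, 243, 218.5, 180 and 178 nt.

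The 10 runs with the most DHX9-Rb peaks held 690 peaks, 7.68% of all run peaks. DHX9-mAb overlapped 285 of them (41.3%), against 35.5% of all run peaks and 28.3% of all DHX9-Rb peaks considered. The 41.3% lay within the interval of the 13 runs of 50 or more peaks, 38.8% (35.5 to 42.1), which include these 10. Counts and sides given with a gene name are those of the run alone, and other runs can lie nearby on its strand. Near the YWHAE run, for example, a run of 29 peaks lay on chromosome 17, minus strand, 1250613 to 1263644. Near the FANCA run, on chromosome 16, minus strand, lay runs of 16 peaks (89828673 to 89835973) and 14 peaks (89800955 to 89810997). The largest lay on chromosome 1, plus strand, 113521850 to 113584363, with 105 peaks, of which 40 were overlapped. It is on the strand of SLC16A1-AS1, a transcript antisense to a monocarboxylate transporter gene. Its DHX9-mAb peaks were spread along the run, with 21 overlapped DHX9-Rb peaks on the 3' side and 18 on the 5' side.

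The next run lay in EIF4G3, the gene of a scaffold protein of translation initiation, on chromosome 1, minus strand, 21453613 to 21502637. Of its 88 peaks 46 were overlapped, 19 on the 3' side and 27 on the 5' side. UBE2D2, which encodes a ubiquitin-conjugating enzyme, held a run of 83 peaks over 60.5 kb on chromosome 5, plus strand, 138942530 to 139003019. Its DHX9-mAb marks were concentrated early, with 4 overlapped peaks on the 3' side and 20 on the 5' side, and none after peak 64. These first 3 runs were also the longest of all. On chromosome 5 as well, NSD1, a histone methyltransferase gene, held 71 peaks from 176563824 to 176608814 on the plus strand, of which 28 were overlapped, 11 on the 3' side and 17 on the 5' side.

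PIP5K1A, the gene of a phosphoinositide kinase, held 70 peaks on chromosome 1, plus strand, 151171871 to 151204052, and 35 of them were overlapped. This run had no gap over 1049 nt and was covered to 56.7%. SAE1, which encodes a subunit of the SUMO-activating enzyme, held 57 peaks on chromosome 19, plus strand, 47673941 to 47706860. Its first overlapped peak was peak 11, and 15 were overlapped in all. A run of 55 peaks on chromosome 1, plus strand, 16161179 to 16190634, reaches into SPEN, a gene of a transcriptional repressor, and 26 of its peaks were overlapped. Its peaks were wide, with a median of 293 nt, and narrower on the 3' side (234 nt) than on the 5' side (328 nt).

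ATXN2, the gene of an RNA-binding protein, held 54 peaks on chromosome 12, minus strand, 111996674 to 112032358, of which 22 were overlapped. YWHAE, the gene of a phosphoprotein-binding adaptor, held 54 peaks on chromosome 17, minus strand, 1273213 to 1303501. Here 12 overlapped peaks lay on the 3' side and 3 on the 5' side, the most uneven split towards the 3' end among the 10. FANCA, a gene of the Fanconi anaemia DNA repair complex, held 53 peaks on chromosome 16, minus strand, 89849386 to 89881723. It had the highest overlapped share of the 10, with 34 peaks (64.2%), and a median width of 291 nt. In 8 of the 10 runs the 5' side had more overlapped peaks and in 2 the 3' side.

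**Figure D5:**
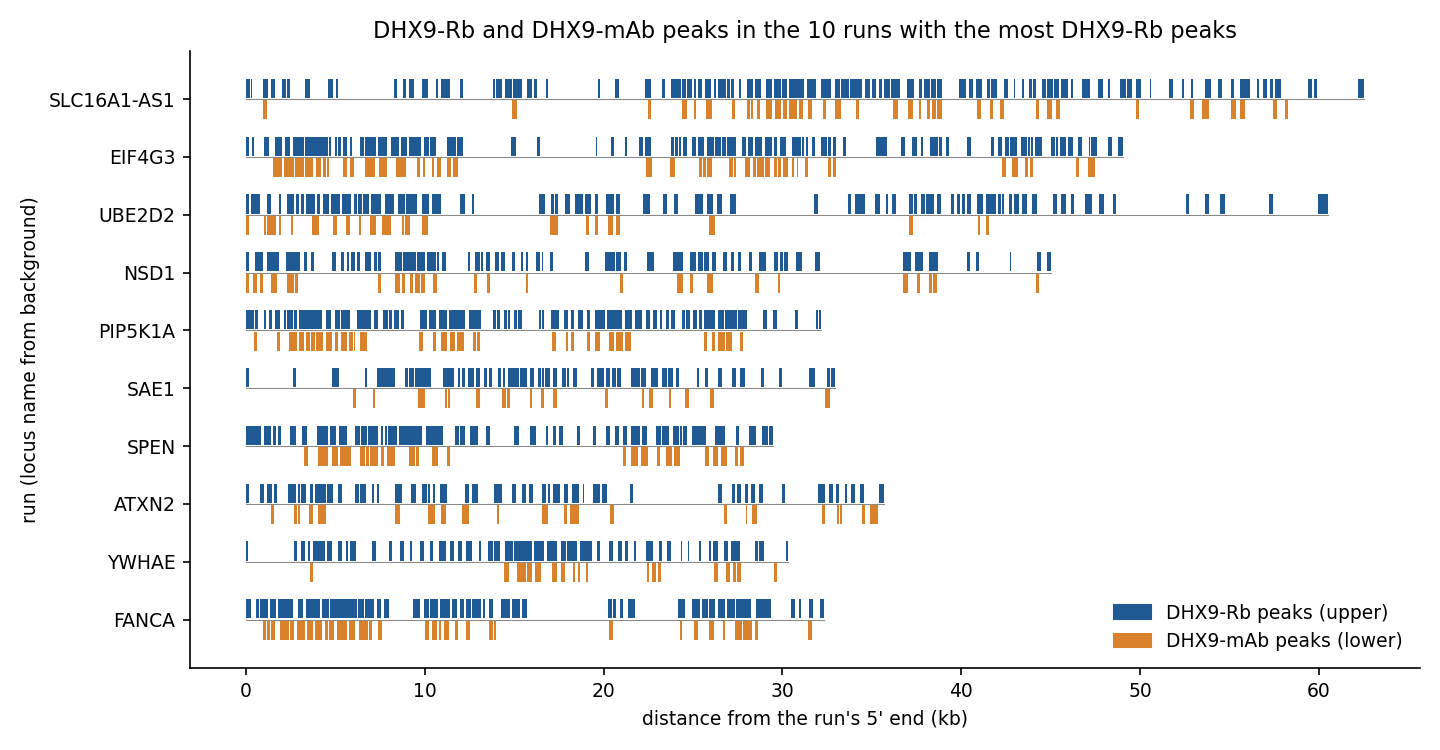
Each row is 1 of the 10 runs with the most DHX9-Rb peaks, drawn to scale from its 5' end (x axis, kb), with DHX9-Rb peaks above the line and DHX9-mAb peaks below it. DHX9-mAb peaks lie mostly on the 5' side in UBE2D2 (20 of 24 overlapped peaks) and on the 3' side in YWHAE (12 of 15), and along the whole run in SLC16A1-AS1.

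A few runs stood at the extremes of DHX9-mAb marking. In 12 runs (2.53%) there was no DHX9-mAb peak at all. The largest of these lay on chromosome 19, plus strand, 15443966 to 15463230, with 25 DHX9-Rb peaks covering 32.5% of 19265 nt. The others with the most peaks lay on chromosome 1, minus strand, each with 13 peaks, from 8774780 to 8793893 and from 33101908 to 33111766. In the opposite direction, all 11 DHX9-Rb peaks of a run at the locus of MDM4, a regulator of p53, were overlapped, on chromosome 1, plus strand, 204519705 to 204527048. There 16 DHX9-mAb peaks covered 1.1 times as many nt as the DHX9-Rb peaks. A run of 13 peaks on chromosome 22, plus strand, 19486688 to 19493015, followed with a ratio of 1.03, and one on chromosome 17, minus strand, 26929395 to 26938097, with 0.832.

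Few runs held DHX9-Rb peaks on the opposite strand, and no matching share was computed for peaks outside runs. In 13 runs (2.74%) at least 1 DHX9-Rb peak of the other strand lay inside the span, 78 peaks in all. A single pair of runs overlapped on opposite strands, both on chromosome 1. The minus-strand run, 16163270 to 16173341 with 20 peaks, lay within the plus-strand run that reaches into SPEN, and each counted the peaks of the other (21 and 20). The next most, 7, were in a run of chromosome 19, plus strand, 3538374 to 3543400.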

How the data were processed

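FLASH libraries of HEK293 cells were analysed as peak lists. The deposited values, classed as other, are the first and last base (counted from 1) and strand of each peak region. Per the files' second column, the authors called peaks with PEAKachu. Alignment software Bowtie2 2.2.6 and assembly hg19 are listed in the submitters' processing notes. The caller's version, control, threshold and treatment of reads that map to many places, which could change which repeats carry peaks, are not given in those notes or the labels. Per the labels' protocols, random bases served to merge PCR duplicates, and IgG control samples were pooled with the DHX9 samples ahead of reverse transcription, so the lists do not come from fully separate libraries. The caller can merge or split close peaks, which affects gaps and widths.

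A gap is the number of bases between neighbouring peaks, negative where they overlap. Runs read 5' to 3' along the strand in the list, which is assumed to be that of the RNA. The middle peak of an odd-numbered run belongs to neither side. Overlap needs 1 nt on the same strand. Runs were named by fixed rules: the 10 with the most peaks, the 3 longest, the 3 with the highest and the 3 with the lowest covered share, the 3 largest without a DHX9-mAb peak and the 3 with the highest ratio of DHX9-mAb to DHX9-Rb coverage. Width classes and the 3 peaks taken as an end were set with the values in view. The 11 settings tried are in the closing section. The members, rules and lists were chosen with earlier results of these data known. No depth could be given, and 0 columns of per-sample values were left unmapped. The run-building steps were tested on simulated data. Calculations used Python 3.11.15, NumPy 2.4.6 and SciPy 1.17.1, and plots matplotlib 3.10.9.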

Additional observations from a re-analysis of the deposited data

How the results depend on the processing

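Each setting changed 1 choice, and 28 of 56 planned recomputed values stayed within the 95% interval of the reported value (within 1.5 times for the number of runs). With a largest gap of 2000 nt, 33.9% of the DHX9-Rb peaks lay in runs, the median gap was 181 nt, the covered share 46.7% and DHX9-mAb overlap 39.5%. With 10000 nt these were 49.9%, 239 nt, 26.9% and 34.1%. With at least 5 peaks there were 1172 runs with 64.7% of the peaks, a median gap of 239 nt and 33.1% overlap. With at least 20 peaks there were 141 runs with 21.9% of the peaks, a median gap of 194.5 nt, a covered share of 38.2%, 38.5% overlap and more overlap on the 3' side in 39.7% of runs. With peaks within 50 nt merged, 36.4% of the merged peaks lay in runs, the median gap was 295 nt, gaps of 250 to 350 nt made up 12.2% and overlap was 34.5%. Without peaks under 150 nt these were 40.1% in runs, a median gap of 236 nt and 40.4% overlap. A required DHX9-mAb coverage of 50% gave 26.0% overlap. With pairs sharing a DHX9-mAb peak left out, a setting chosen after seeing the data, the share after an overlapped neighbour was 47.8%, and the median gap of pairs with both overlapped was 169 nt. The Alu-scale share was 20.6% for gaps of 200 to 400 nt and 16.8% for midpoint distances. The share of runs with the wider 3' side stayed between 44.7 and 49.3% in all 8 settings tried, and that with more overlap on the 3' side between 39.7 and 47.4% in all 9. The interval of the first excluded 50% with merged peaks or narrow peaks left out. That of the second excluded 50% with a largest gap of 2000 nt, at least 20 peaks, merged peaks, narrow peaks left out, 50% coverage or division by position. A stricter threshold of the caller could not be tried because the lists hold no score, and no replicate could be left out. No paired analysis was possible because each list stands for both replicates.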
